A study of Mus musculus with 6 samples.

Results

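The genes described here are 46 genes of endothelial identity and angiogenesis, measured by bulk RNA sequencing in the infarcted mouse heart. They were taken by name from a table of 54532 genes, and all 46 were found, each in 1 row. They comprise 5 VEGF ligands, 5 VEGF receptors and co-receptors, 5 angiopoietin and Tie genes, 8 Notch genes, 3 apelin and tip cell genes, 5 endothelial transcription factors, 12 surface and junction genes and 3 lymphatic genes. The study compared 3 WT mice with 3 *Crlf2*-/- mice, which carry a targeted knockout of the receptor chain for the cytokine thymic stromal lymphopoietin (TSLP), with no restriction to a cell type named. The labels give a C57BL/6 strain for all mice, and the study's methods describe the purchased mice as adult males, without giving sex or age for the *Crlf2*-/- mice. In all mice the left anterior descending coronary artery was tied permanently, and heart tissue was collected on day 7 post-MI, by the methods from the peri-infarcted and infarcted area. By the methods, C57BL/6J mice were bought from a commercial breeder and the *Crlf2*-/- mice were generated by another company. Whether the sequenced WT mice were the bought ones is not stated. If they were, genotype and origin cannot be told apart. The files hold no uninfarcted or sham-operated hearts, so every value describes the infarcted heart and the contrast is between genotypes. One library stood for each mouse.

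Blood vessels grow when endothelial cells, which line them, answer VEGF ligands through the receptors KDR, FLT1 and FLT4. A leading tip cell then guides each sprout, Notch signaling between neighboring cells keeps the followers from becoming tip cells, and the balance of angiopoietin 1 and angiopoietin 2 at the receptor TIE2 settles whether a vessel stays quiet or is loosened for growth. After MI, new capillaries form around the infarct, and lymphatic vessels, which depend mainly on VEGFC, VEGFD and FLT4, drain fluid and immune cells from the tissue.

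The libraries held between 18508646 and 19682428 fragments on listed genes. Values are FPKM, that is, fragments per unit of gene length and of sequencing depth, made comparable between libraries (scaled FPKM). *Crlf2* itself had 707 to 917 fragments in WT libraries and 437 to 667 in *Crlf2*-/- libraries (log2 fold change -0.52, limma adjusted p of 0.521), so transcripts of the targeted gene were still counted in the mice labelled as knockouts. Which part of *Crlf2* was deleted is not given in the sources used here. Defining markers of heart muscle and of endothelium were present in every library. The lung surfactant gene *Sftpc* stood at 8.30 scaled FPKM in WT replicate 3 and between 0.0846 and 0.344 in the other 5 libraries. WT replicate 3 was also the highest of the 6 libraries for 24 of the 46 genes and the lowest for 0 of them, while over 15505 tested genes it was the highest for 2749 and the lowest for 3095. Counts that rest on this library are therefore given below with and without it, and its part in the results was not tested.

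No member passed the test, and those that differed most between genotypes had lower values in *Crlf2*-/- hearts. The strongest candidates were *Angpt2*, which encodes the vessel-loosening ligand angiopoietin 2, and *Apln*, which encodes the tip cell peptide apelin, with fitted levels 0.614 and 0.606 times those of WT. All 46 genes had enough fragments to be tested, from 101 to 8423 per gene and library. With limma and Benjamini-Hochberg adjustment over all 15520 tested genes, 0 of the 46 passed both thresholds, an adjusted p no higher than 0.05 and a log2 fold change of 0.5 or more in size, against 2 of 15520, or 0.0129%, in the whole table. The study, with a count-based test and the same thresholds, reported many more genes as different. Why the numbers differ was not tested. The smallest adjusted p among the members was 0.138. At an unadjusted p under 0.05, 6 members (13.0%) were lower in *Crlf2*-/- hearts and 0 were higher, where 3.36% of all tested genes were lower and 3.22% were higher. The number of lower members was 7, 4 and 3 without WT replicates 1, 2 and 3 in turn, and 6, 7 and 8 without *Crlf2*-/- replicates 1, 2 and 3. In the same order, 3.45%, 1.75%, 3.37%, 3.12%, 2.83% and 4.1% of all tested genes were lower at that p. Of all tested genes, 7.43% had an unadjusted p under 0.05 in either direction without WT replicate 3, against 6.58% with it. In 9 members (19.6%) all *Crlf2*-/- values were under all WT values, which held for 6.37% of all tested genes. In 0 members were they all above, against 5.37% of all tested genes. Of the 46 log2 fold changes 34 were negative, against 50.9% of all tested genes. Without WT replicate 3, 10 members lay wholly below WT and 3 wholly above, where 13.5% and 11.3% of all tested genes did so with the fewer libraries, and 31 were negative, against 53.4% of all. In bulk tissue, fewer endothelial cells and less RNA per endothelial cell cannot be told apart.

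**Figure D1:**
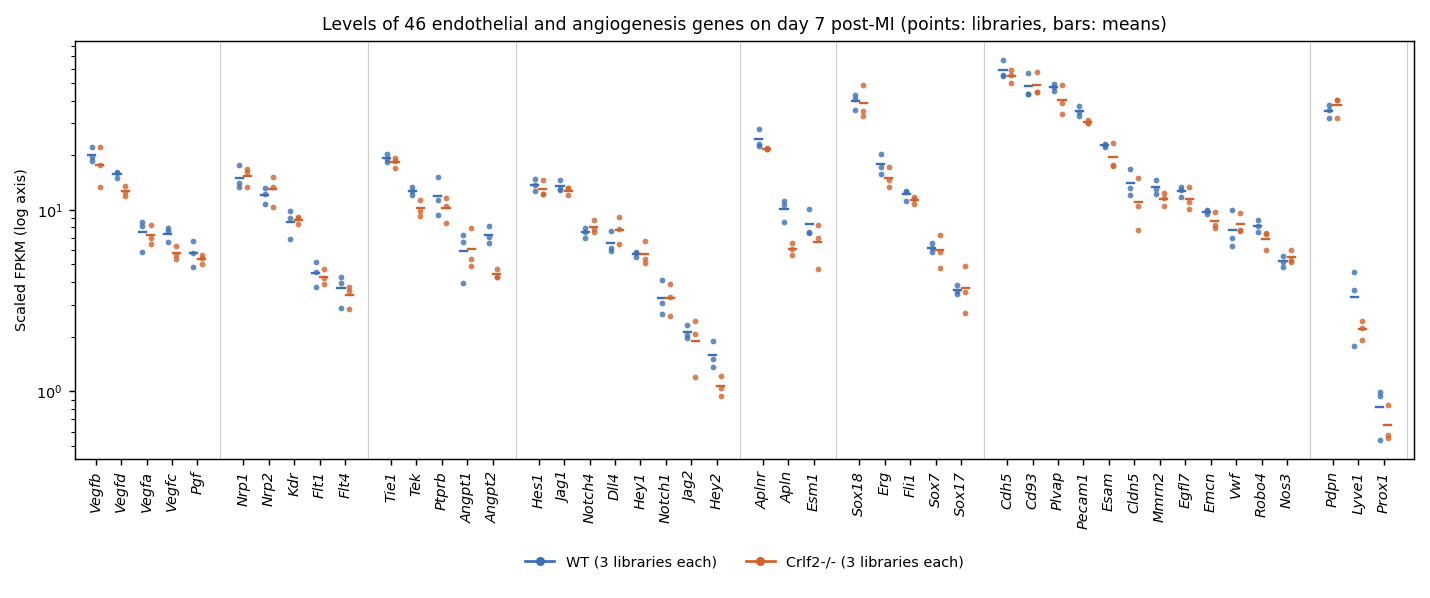
Scaled FPKM of the 46 genes on a log axis, in 8 role groups separated by vertical lines, with 1 point per library (3 WT in blue, 3 *Crlf2*-/- in orange) and a bar at each group mean. Levels span from a mean of 0.738 for *Prox1* to 56.8 for *Cdh5*, and the groups overlap in 37 of the 46 genes.

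The sizes were small for most members. The absolute log2 fold change was under 0.25 for 36 of 46, and for 25 of 46 the 95% interval of the log2 fold change lay within -0.5 and 0.5. The median over the 46 was -0.11, against -0.0042 over all tested genes, and turned to 0.05 when the libraries were scaled to 25 other pan-endothelial genes. That scaling moved the median of all tested genes to 0.15, so the members' median then differed from it by -0.10. Under it 20 of 46 log2 fold changes were negative, against 19.7% of all tested genes. At an unadjusted limma p under 0.05, 2 members were lower and 1, *Dll4*, was higher, against 1.25% and 8.43% of all tested genes. Without WT replicate 1 the members' median was -0.18, and without WT replicate 3 it was -0.07.

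**Figure D2:**
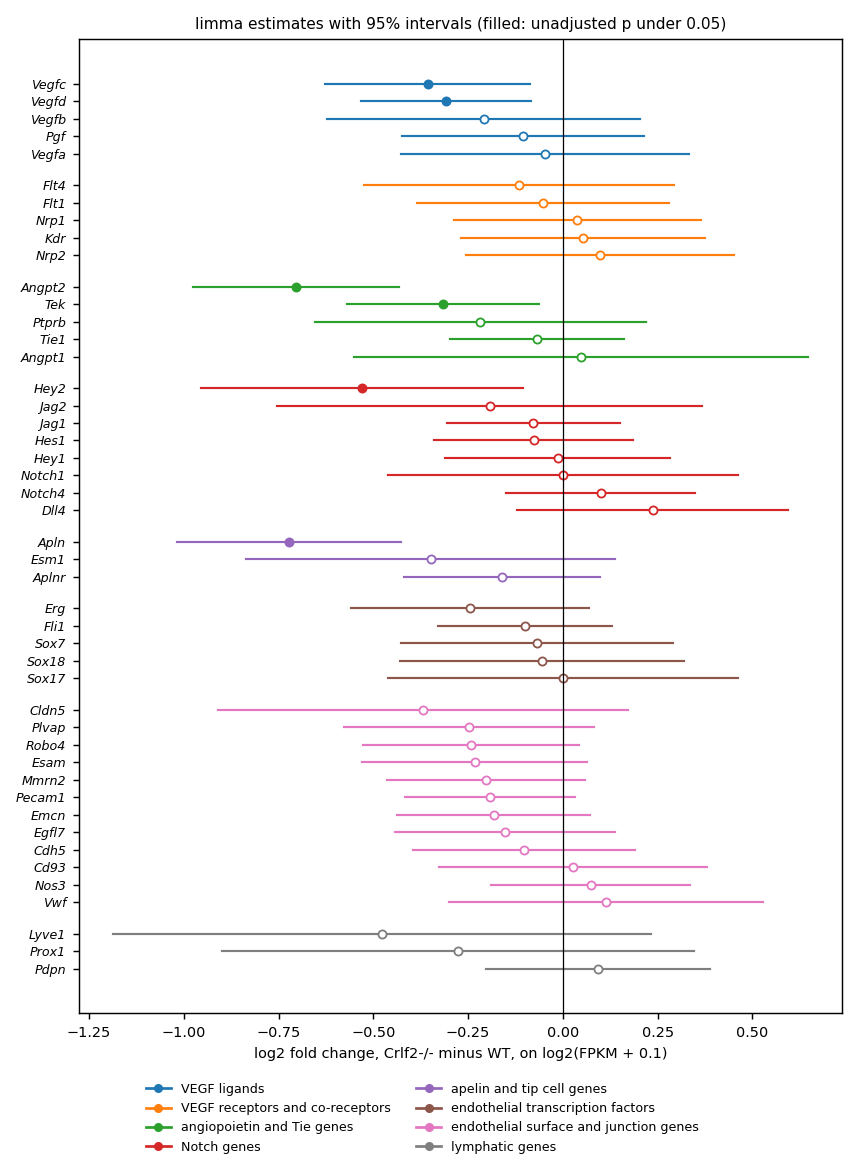
Log2 fold change of each member, *Crlf2*-/- minus WT on log2(scaled FPKM + 0.1), with 95% intervals from limma, colored by role group and filled where the unadjusted p was under 0.05. The 6 filled points, *Angpt2*, *Apln*, *Hey2*, *Vegfc*, *Tek* and *Vegfd*, all lie left of 0, and stayed left of it under the pan-endothelial scaling.

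The angiopoietin and Tie genes held the member with the smallest p. *Angpt2* (ENSMUSG00000031465, minus strand of chromosome 8, 18690263 to 18741562, GRCm38) encodes the ligand that opposes angiopoietin 1 at TIE2 and is released by activated endothelium. It stood at 8.13, 6.57 and 7.09 scaled FPKM in the 3 WT libraries and at 4.27, 4.25 and 4.70 in the 3 *Crlf2*-/- libraries. The *Crlf2*-/- values lay close together and well below the lowest WT value. The log2 fold change was -0.70 (SE 0.118), with a limma p of 0.00031 and an adjusted p of 0.138, and it lay between -0.77 and -0.54 over 17 alternative settings with adjusted p between 0.101 and 0.416. *Tek*, which encodes TIE2, the receptor of both angiopoietins, was at 12.0, 12.7 and 13.3 in WT and at 9.88, 9.29 and 11.4 in *Crlf2*-/- hearts. The gap between the groups was small beside their spread, with a log2 fold change of -0.32 (SE 0.110) and a limma p of 0.0201, adjusted 0.595. Without WT replicate 3 the *Tek* log2 fold change was -0.28 and its limma p 0.0573, and without *Crlf2*-/- replicate 2 they were -0.25 and 0.0787.

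The other 3 genes of this axis overlapped between groups. *Tie1*, an orphan receptor that pairs with TIE2, had the highest level, at 19.1, 18.2 and 20.2 in WT and 17.0, 18.5 and 19.4 in *Crlf2*-/- libraries. *Ptprb*, whose product VE-PTP removes phosphate from TIE2, had a mean of 12.0 ± 2.97 in WT and 10.2 ± 1.59 in *Crlf2*-/- hearts (SD, n = 3 each). *Angpt1*, the stabilizing ligand made mainly by cells around the vessel, had means of 5.95 ± 1.77 and 6.08 ± 1.62, and its 95% interval for the log2 fold change ran from -0.55 to 0.65. In scaled FPKM, *Angpt2* was above *Angpt1* in 2 of 3 WT libraries and below it in all 3 *Crlf2*-/- libraries, and the ratio was 1.22, 1.67 and 0.976 in WT and 0.867, 0.535 and 0.873 in *Crlf2*-/- hearts.

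The apelin genes showed the largest fold change of the 46. *Apln* (ENSMUSG00000037010, minus strand of chromosome X, 48025146 to 48034853) encodes apelin, a peptide made by sprouting endothelium. Its levels were 8.58, 10.6 and 11.2 in WT and 6.53, 6.05 and 5.64 in *Crlf2*-/- libraries. The groups were separate, with the highest *Crlf2*-/- value still under the lowest WT value. The log2 fold change was -0.72 (SE 0.129), with a limma p of 0.000479 and an adjusted p of 0.149, and it lay between -0.84 and -0.56 over 17 alternative settings with adjusted p between 0.132 and 0.545. *Aplnr*, the apelin receptor of venous and sprouting endothelium, was at 23.1, 27.9 and 22.3 in WT and at 21.5, 21.7 and 22.0 in *Crlf2*-/- hearts. The groups did not overlap, but by a narrow margin, with a log2 fold change of -0.16 and a limma p of 0.19 (adjusted 0.929), and under the pan-endothelial scaling the fold change was 0.0039. *Esm1*, a tip cell proteoglycan, overlapped between groups, with means of 8.36 ± 1.51 in WT and 6.64 ± 1.76 in *Crlf2*-/- hearts.

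Promoter sequences are shown for members that were lower together, so that the letters before their starts can be compared. Of the 6 members with an unadjusted p under 0.05, 5 were found in RefSeq's promoter table (GRCm38.p6), and the windows of 3 lie wholly before the gene as listed in the file. *Angpt2* is not among them. The sequences are the 250 bases before the RefSeq start, written 5′ to 3′ along the gene's strand, and capitals mark GGAA, the core of ETS factor sites such as those of ERG and FLI1, read on either strand (so also TTCC). The *Apln* window is chrX:48034854-48035103 on the minus strand, the *Tek* window chr4:94739039-94739288 on the plus strand and the *Vegfc* window chr8:54077282-54077531 on the plus strand.
Apln: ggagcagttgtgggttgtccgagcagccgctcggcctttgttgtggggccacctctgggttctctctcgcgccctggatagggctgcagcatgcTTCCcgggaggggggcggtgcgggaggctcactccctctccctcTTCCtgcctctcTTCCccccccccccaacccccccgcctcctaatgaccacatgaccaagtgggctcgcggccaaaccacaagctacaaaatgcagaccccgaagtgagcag
Tek: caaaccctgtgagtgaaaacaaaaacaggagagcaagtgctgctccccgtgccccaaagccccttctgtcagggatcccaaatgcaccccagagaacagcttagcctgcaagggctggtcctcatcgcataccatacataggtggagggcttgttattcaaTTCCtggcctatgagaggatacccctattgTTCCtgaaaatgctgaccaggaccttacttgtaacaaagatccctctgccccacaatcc
Vegfc: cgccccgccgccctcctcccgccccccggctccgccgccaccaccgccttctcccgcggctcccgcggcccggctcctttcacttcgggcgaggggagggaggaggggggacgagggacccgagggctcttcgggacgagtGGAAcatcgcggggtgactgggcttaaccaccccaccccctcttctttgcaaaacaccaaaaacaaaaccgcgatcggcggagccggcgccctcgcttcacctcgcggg
GGAA occurred 3 times in the *Apln* window, 2 times in the *Tek* window and once in the *Vegfc* window. It is a common run of letters, present in 93.45% of 32851 RefSeq windows of this length and in 29 of the 34 windows found for 27 of the members. ACGTG, the core bound by hypoxia-inducible factors, occurred in none of these 3 windows, in 2 of 34 member windows and in 16.57% of all windows, each read on both strands. TGGGAA, the core bound by the Notch effector RBPJ, which contains GGAA, was in 9 of 34 member windows and in 21.59% of all. ACAAT, the core bound by SOX factors, was in 7 of 34 and 27.66%, and TATAAA in 4 of 34 and 12.37%. These are matches of letters and not measured binding.

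All 5 VEGF ligands had negative log2 fold changes, against 50.9% of all tested genes. Their median was -0.21, although *Vegfa* and *Pgf* turned to 0.12 and 0.06 under the pan-endothelial scaling. The lymphangiogenic ligands showed the clearest separation. *Vegfd*, a ligand of FLT4, was at 16.2, 14.9 and 16.02 in WT and at 13.5, 12.0 and 12.6 in *Crlf2*-/- hearts, a log2 fold change of -0.31 (SE 0.0972) with a limma p of 0.013 and an adjusted p of 0.514. *Vegfc*, the main ligand for lymphatic sprouting, was at 6.64, 7.60 and 7.92 in WT and at 6.29, 5.33 and 5.61 in *Crlf2*-/- hearts, a log2 fold change of -0.36 (SE 0.117) with a limma p of 0.0157 and an adjusted p of 0.546. In neither gene did the groups overlap, but the closest libraries, WT replicate 1 and *Crlf2*-/- replicate 1 for *Vegfc*, were near each other. Under the pan-endothelial scaling the fold changes were -0.14 for *Vegfd* and -0.19 for *Vegfc*, with limma p of 0.331 and 0.219.

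The blood vessel ligands did not separate. *Vegfa*, the main signal for vessel sprouting and a hypoxia target, was at 5.86, 8.19 and 8.60 in WT and at 8.19, 6.50 and 7.02 in *Crlf2*-/- hearts, with a log2 fold change of -0.05 and a 95% interval from -0.43 to 0.33. *Vegfb*, a FLT1 ligand abundant in heart muscle, had the highest level of the ligands, at 18.5, 22.2 and 19.5 in WT and 13.3, 17.6 and 22.1 in *Crlf2*-/- libraries. *Pgf*, the placental growth factor that also binds FLT1, was at 4.85, 5.78 and 6.75 in WT and at 5.40, 5.62 and 4.997 in *Crlf2*-/- hearts. For these 3 ligands the *Crlf2*-/- values lay inside or across the WT range.

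The 5 receptors and co-receptors were close to equal in the 2 genotypes, with log2 fold changes between -0.12 and 0.10 and adjusted p of at least 0.995. *Nrp1*, a co-receptor for VEGFA and the highest of the 5, was at 14.01, 13.4 and 17.7 in WT and at 16.7, 13.3 and 16.2 in *Crlf2*-/- hearts. *Nrp2*, the co-receptor used in lymphatic vessels, had means of 12.1 ± 1.22 and 13.0 ± 2.44. *Kdr*, the main signaling VEGF receptor, had means of 8.59 ± 1.499 and 8.84 ± 0.396. *Flt1*, a high-affinity receptor that also acts as a decoy, and *Flt4*, the receptor of VEGFC and VEGFD, had log2 fold changes of -0.05 and -0.12, which turned to 0.11 and 0.05 under the pan-endothelial scaling. The 95% interval was -0.27 to 0.38 for *Kdr* and -0.52 to 0.29 for *Flt4*, so a difference of the size seen for *Vegfc* could not be told from none in *Flt4*.

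**Figure D3:**
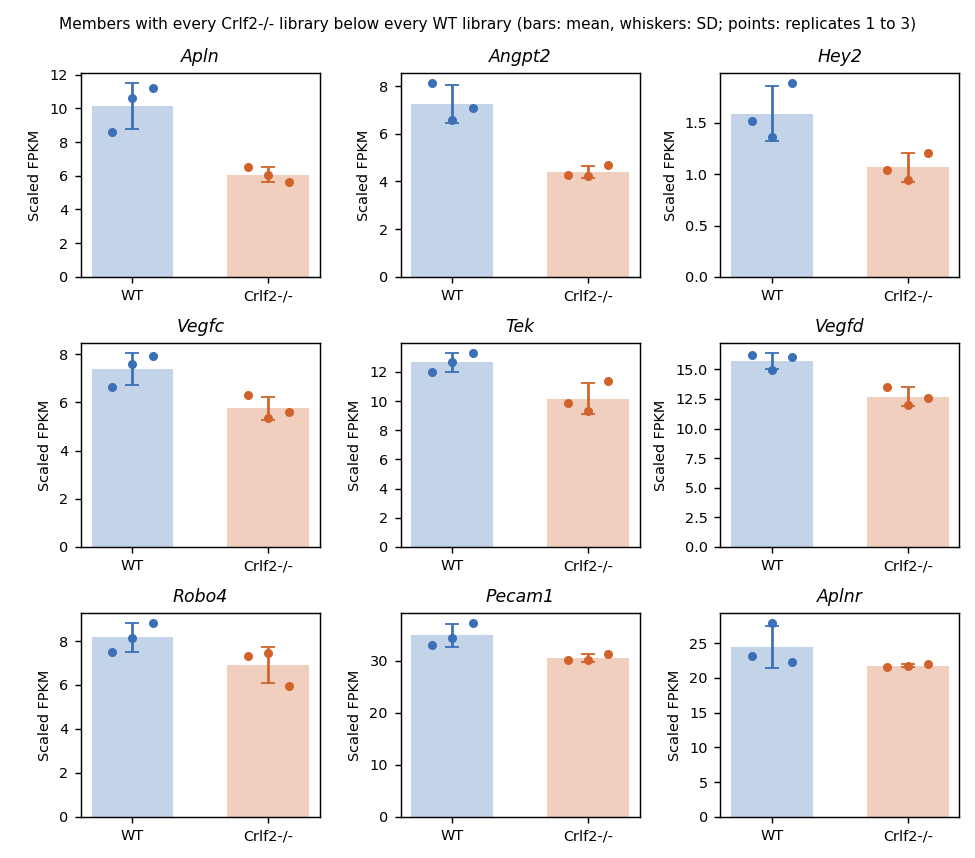
Scaled FPKM of the 9 members whose *Crlf2*-/- values were all under the WT values, with the mean as a bar from 0, the SD as whiskers and 1 point per library in the order of replicates 1 to 3. *Angpt2* runs from 6.57 to 8.13 in WT and from 4.25 to 4.70 in *Crlf2*-/- hearts, while for *Robo4* the lowest WT value, 7.52, nearly meets the highest *Crlf2*-/- value, 7.43.

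Among the 8 Notch genes only the target *Hey2* had an unadjusted p under 0.05, and the group median was -0.05, or 0.12 under the pan-endothelial scaling. Leaving out each library in turn gave medians from -0.12 without WT replicate 1 to 0.0056 without *Crlf2*-/- replicate 1. *Hey2*, a repressor switched on by Notch in arteries and also found in heart muscle, was at 1.51, 1.36 and 1.89 in WT and at 1.05, 0.939 and 1.21 in *Crlf2*-/- hearts. These are low levels, from 101 to 190 fragments per library, and the log2 fold change was -0.53 (SE 0.185) with a limma p of 0.0205 and an adjusted p of 0.598. Without WT replicate 3 it was -0.41 with a limma p of 0.0747. *Hey1*, the related repressor, stood at 5.73 ± 0.205 in WT and 5.71 ± 0.886 in *Crlf2*-/- hearts. *Hes1*, a Notch target of many cell types and the highest gene of this group, was at 12.6, 14.8 and 13.7 in WT and at 12.3, 14.6 and 12.2 in *Crlf2*-/- hearts. Both overlapped between the groups.

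Of the Notch ligands, *Dll4*, the tip cell ligand, had the highest log2 fold change of all 46 members, 0.24 (95% interval -0.12 to 0.60), with a limma p of 0.164 and an adjusted p of 0.916. Its means were 6.57 ± 0.943 in WT and 7.78 ± 1.29 in *Crlf2*-/- hearts, and the groups overlapped. *Jag1*, which opposes DLL4 in sprouts, had means of 13.5 ± 0.934 and 12.8 ± 0.602, and *Jag2*, another Notch ligand, 2.11 ± 0.179 and 1.90 ± 0.636. The receptors were also close in the 2 genotypes. *Notch1*, used by many cell types, had means of 3.27 ± 0.739 and 3.26 ± 0.654, and *Notch4*, which is largely endothelial, 7.52 ± 0.481 and 8.07 ± 0.659.

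The 5 transcription factors of endothelial identity all overlapped between groups, with log2 fold changes from -0.24 to 0.0002 and a median of -0.07, or 0.10 under the pan-endothelial scaling. The median was -0.21 without *Crlf2*-/- replicate 2, -0.11 without WT replicate 2 and 0.02 without *Crlf2*-/- replicate 3. *Sox18*, a SOX factor of vessel and lymphatic development and the highest of the group, was at 42.8, 41.0 and 35.4 in WT and at 35.0, 48.4 and 32.7 in *Crlf2*-/- hearts, so the *Crlf2*-/- libraries included both the highest and the lowest value. Its relatives *Sox17*, an arterial factor, and *Sox7* had log2 fold changes of 0.0002 and -0.07. *Fli1*, an ETS factor also present in blood cells, had means of 12.2 ± 0.874 and 11.3 ± 0.464. *Erg*, the ETS factor most restricted to endothelium, had means of 17.8 ± 2.36 and 15 ± 1.93, with a limma p of 0.109 (adjusted 0.856).

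The 12 surface and junction genes are the most used markers of endothelial cells. Of them 9 had negative log2 fold changes, against 50.9% of all tested genes. The median was -0.19, and 0 had an unadjusted p under 0.05. *Pecam1*, which encodes the junction protein CD31, was at 33.0, 34.5 and 37.3 in WT and at 30.1, 30.2 and 31.4 in *Crlf2*-/- hearts. The groups did not overlap, and the log2 fold change was -0.19 (SE 0.0974) with a limma p of 0.084 and an adjusted p of 0.827. Under the pan-endothelial scaling the *Pecam1* log2 fold change was -0.03. *Robo4*, a receptor that steadies the vessel wall, was at 7.52, 8.15 and 8.83 in WT and at 7.31, 7.43 and 5.97 in *Crlf2*-/- hearts, a log2 fold change of -0.24 with a limma p of 0.085 and an adjusted p of 0.827. For *Robo4* the lowest WT value and the highest *Crlf2*-/- value nearly met. *Cdh5*, which encodes VE-cadherin and had the highest level of all 46 genes, was at 54.3, 55.3 and 67.1 in WT and at 59.1, 49.7 and 55.3 in *Crlf2*-/- hearts. The groups overlapped in part, and the log2 fold change was -0.10.

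The remaining surface genes overlapped too. The lowest log2 fold change among them, -0.37, was that of *Cldn5*, a tight junction protein, whose *Crlf2*-/- values ran from 7.74 to 15.05 against 12.0 to 16.7 in WT. *Plvap*, which forms the diaphragms of leaky capillaries, had means of 47.4 ± 2.23 and 40.3 ± 7.52, and *Esam*, a junction adhesion molecule, 22.7 ± 0.566 and 19.4 ± 3.26. In *Cldn5*, *Plvap* and *Esam* the *Crlf2*-/- libraries spread more than the WT libraries, with replicate 2 at the WT level and replicates 1 and 3 below it. *Mmrn2* and *Cd93*, a matrix ligand and its endothelial receptor, had log2 fold changes of -0.20 and 0.03, and *Emcn*, a sialomucin of veins and capillaries, -0.18. *Egfl7*, a secreted factor of the vessel wall, had -0.15, or 0.01 under the pan-endothelial scaling. *Nos3*, the endothelial nitric oxide synthase, and *Vwf*, the clotting factor stored in endothelium, had positive log2 fold changes of 0.07 and 0.11, with adjusted p of 0.995 for both.

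**Figure D4:**
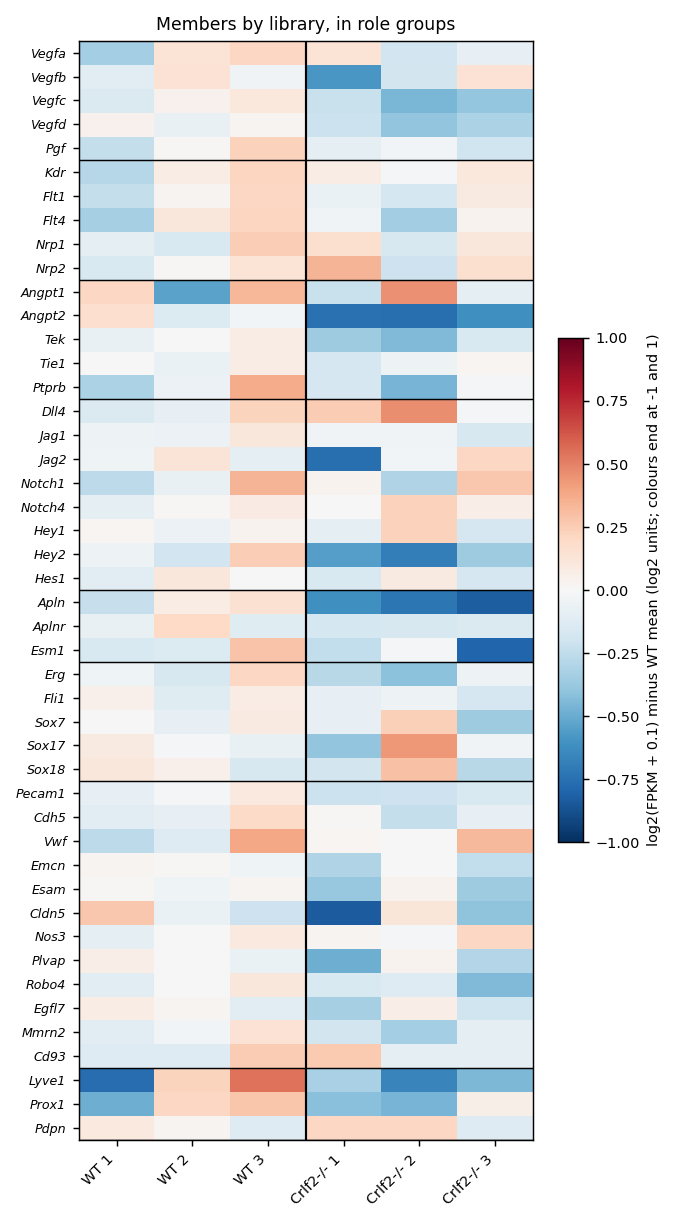
Each member in each library as log2(scaled FPKM + 0.1) minus the WT mean, in role groups separated by horizontal lines, with the genotypes separated by a vertical line and colors ending at -1 and 1. *Angpt2*, *Apln* and *Hey2* are blue in all 3 *Crlf2*-/- columns, while WT replicate 3 is the highest library in 24 of 46 rows.

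The 3 lymphatic genes gave no separation. *Lyve1*, a hyaluronan receptor of lymphatic endothelium that tissue macrophages also make, was at 1.78, 3.62 and 4.54 in WT and between 1.92 and 2.45 in *Crlf2*-/- hearts, with WT replicate 1 the lowest of the 6. Its log2 fold change was -0.48 with a limma p of 0.159 and an adjusted p of 0.912. Without WT replicate 1 it was -0.86, with an unadjusted limma p of 0.0015 and an adjusted p of 0.349. Without WT replicate 3, which held the highest value, it was -0.21 with an unadjusted limma p of 0.489. *Prox1*, the factor that sets lymphatic identity and is also found in heart muscle, was the lowest of all members, at 0.823 ± 0.245 and 0.653 ± 0.160. *Pdpn*, a glycoprotein of lymphatic endothelium and of activated fibroblasts, was the highest of the 3, at 37.6, 35.7 and 32.1 in WT and 40.4, 40.4 and 32.0 in *Crlf2*-/- hearts. The log2 fold changes were negative for *Lyve1* and *Prox1* (-0.48 and -0.28) and positive for *Pdpn* (0.09). So the lower *Vegfc* and *Vegfd* values stood beside lymphatic marker values that overlapped between genotypes but had a negative median.

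Ratios of members within a library do not depend on how libraries are scaled, and 8 were computed. In 5 the groups did not overlap, which gives the smallest p that an exact two-sided permutation test of 3 against 3 libraries allows, 0.1 (0.16 after Benjamini-Hochberg adjustment over the 8). The pairs were picked, and the share without overlap among other gene pairs was not computed. *Angpt2*, *Apln* and *Hey2*, the numerators of the separated ratios that were lower in *Crlf2*-/- hearts, were already without overlap by themselves. Those ratios therefore reuse the same low values. *Angpt2* over *Angpt1* is given above. *Angpt2* over *Tek* was 0.676, 0.519 and 0.533 in WT and 0.432, 0.457 and 0.414 in *Crlf2*-/- hearts. *Apln* over *Aplnr* was 0.371, 0.379 and 0.503 in WT and 0.304, 0.278 and 0.256 in *Crlf2*-/- hearts, and *Hey2* over *Hey1* was 0.260, 0.248 and 0.322 against 0.196, 0.140 and 0.239. *Dll4* over *Jag1* went the other way, at 0.454, 0.476 and 0.525 in WT and 0.595, 0.692 and 0.537 in *Crlf2*-/- hearts. *Vegfc* over *Flt4*, *Vegfd* over *Flt4* and *Vegfb* over *Vegfa* overlapped, with exact permutation p of 0.2, 0.6 and 0.6. The spread of *Flt4* among WT libraries, lowest in replicate 1, is part of both *Flt4* ratios.

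Summed over the 46 genes, scaled FPKM ran from 632 to 691 in WT and from 591 to 622 in *Crlf2*-/- hearts, without overlap. This sum is carried by the abundant genes such as *Cdh5*, *Cd93* and *Plvap*, which by themselves overlapped. Libraries also differed in ways that the genotype did not set. Across the 46 genes, the Spearman correlation of a library's deviation with gene length was -0.53 and -0.31 in WT replicates 1 and 2, 0.27 in WT replicate 3, and 0.35, -0.31 and 0.69 in *Crlf2*-/- replicates 1 to 3. The same library effects act on all points of each correlation, which is given as a description, and the part of gene length in the results was not tested beyond a fit corrected for length and GC content, in which 9 members were lower at an unadjusted limma p under 0.05, as were 4.19% of all tested genes against 3.36% without the correction.

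Genes around the members were read from 9 further lists, and 0 genes in any of them reached the adjusted threshold. The 25 other pan-endothelial genes had a median log2 fold change of -0.11, as the members had. Of all tested genes, 50.9% had negative values and 3.36% were lower at an unadjusted limma p under 0.05. In this list 19 genes had negative values and 5 were lower at that p. Among these were *Cd34*, the sialomucin of endothelial and progenitor cells, at 38.0, 36.1 and 35.7 in WT and 27.8, 26.9 and 29.1 in *Crlf2*-/- hearts (log2 fold change -0.39, adjusted limma p of 0.312), and *Aqp1*, the water channel of capillaries and red cells, at 32.7, 41.4 and 33.9 against 22.5, 24.8 and 28.7 (-0.51, adjusted limma p of 0.369). *Ramp2*, the adrenomedullin co-receptor, had -0.33 and *Car4*, a capillary carbonic anhydrase, -1.27, the last on 1 to 22 fragments per library. The list used for the pan-endothelial scaling is this one, so that scaling makes the mean log2 value of these genes equal between libraries by construction. Single genes of the list can still differ under it. *Car4* counts as much as any other gene in that mean, despite its few fragments.

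**Figure D5:**
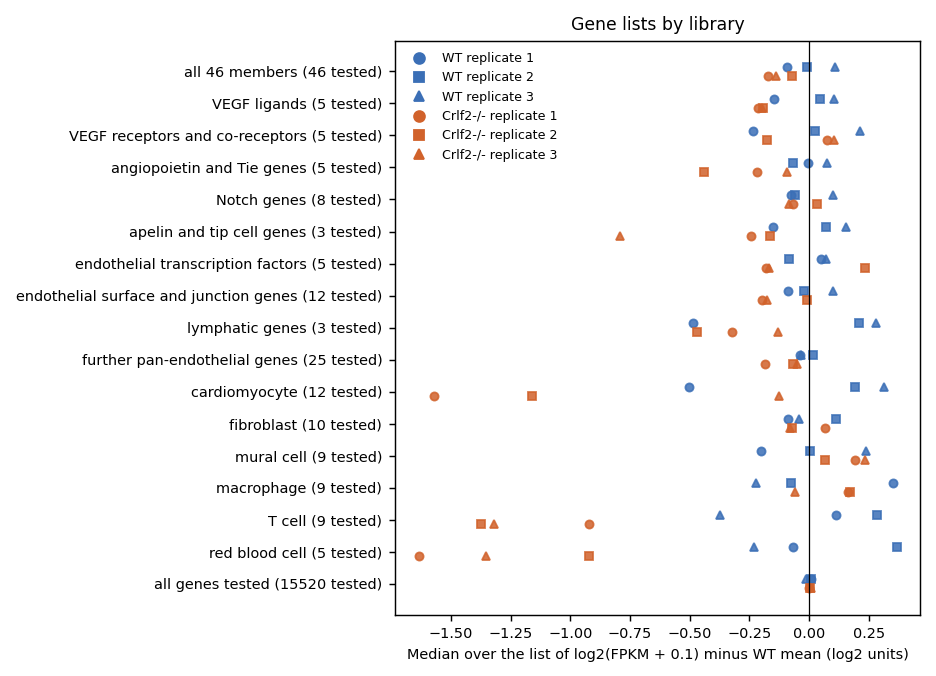
Median over each list of log2(scaled FPKM + 0.1) minus the WT mean, 1 symbol per library (blue WT, orange *Crlf2*-/-; circles, squares and triangles are replicates 1 to 3), for the members, their role groups, other pan-endothelial genes, markers of other cell types and all tested genes. T cell and red blood cell markers lie lower in all 3 *Crlf2*-/- libraries than in any WT library, whereas for the 46 members WT replicate 1 lies among the *Crlf2*-/- libraries.

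The other lists gave single genes at an unadjusted limma p under 0.05. Of all tested genes, 6.58% had such a p in either direction and 50.9% had negative log2 fold changes. Of 12 further VEGF pathway genes (median -0.02), the adaptor *Shb* and the kinase *Src* had log2 fold changes of 0.42 and 0.26 and the adaptor *Sh2d2a*, which T cells use too, -0.65. Of 13 hypoxia response genes (median -0.02), the glucose transporter *Slc2a1* was at 7.25, 6.84 and 6.33 in WT and 10.1, 8.28 and 9.45 in *Crlf2*-/- hearts, a log2 fold change of 0.44 with an adjusted limma p of 0.355. All 6 tested genes of the further angiopoietin and Tie pathway were negative (median -0.23) and 0 had an unadjusted p under 0.05, with *Ptpn11*, a phosphatase downstream of many receptors, the most abundant at 20.7 ± 1.24 in WT and 20.2 ± 2.44 in *Crlf2*-/- hearts. Neither the 21 tested further Notch genes (median 0.0041, most abundant *Adam10*, a Notch protease, log2 fold change 0.0048) nor the 9 tested further tip cell genes (median 0.05, most abundant *Mcam*, an adhesion molecule, 0.05) held a gene at an unadjusted p under 0.05. Of 8 artery and vein genes (median 0.02), the vein factor *Nr2f2* had -0.35, of 6 tested further lymphatic genes (median -0.18) the matrix protein *Mmrn1* had -0.61, and of 10 angiogenesis inhibitors (median 0.06) *Angptl4* had -0.89, with adjusted limma p of 0.645, 0.74 and 0.557.

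Median log2 fold changes further from 0 were found for markers of heart muscle, T cells and red blood cells, though 0 of these genes reached the adjusted threshold. Of all tested genes, 50.9% had negative log2 fold changes and 3.36% were lower at an unadjusted limma p under 0.05. All 12 cardiomyocyte markers had negative log2 fold changes (median -0.87), and their summed level was 1254 to 2275 scaled FPKM in WT and 830 to 1608 in *Crlf2*-/- hearts. The most abundant were *Actc1*, cardiac actin (log2 fold change -0.69), and *Mb*, myoglobin (-1.04). T cell markers were lower in 8 of 9 genes at an unadjusted limma p under 0.05 (median -1.18, summed 13.0 to 20.05 against 6.88 to 8.06, led by *Cd8b1* and *Lck*), and red blood cell genes in 5 of 5 tested (median -1.29, summed 226 to 366 against 85.4 to 161, led by *Hbb-bs* and *Hba-a1*). *Hey2* and *Prox1* are also made by heart muscle, and *Aqp1* by red cells. The part of these cells in the members' values was not tested.

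The other marker lists had medians nearer to 0 than those of heart muscle, T cells and red blood cells. The mesothelial and mural medians still lay further from 0 than the members' median of -0.11. Fibroblast markers had a median of -0.05 (summed 6930 to 8173 against 8099 to 8227, most abundant *Col1a1* and *Col3a1*). Mural cell markers had a median of 0.22 (742 to 841 against 878 to 930, *Acta2* and *Rgs5*), macrophage markers 0.10 (1017 to 1609 against 1298 to 1562, *C1qb* and *C1qa*), mesothelial markers 0.39 (16.7 to 28.1 against 21.6 to 43.8, *Tbx18* and *Msln*) and endocardial markers 0.09 (8.20 to 9.75 against 8.34 to 8.96, *Nfatc1* and *Npr3*). Platelet markers had a median of 0.05 over 3 tested genes (35.6 to 86.1 against 53.1 to 88.6, *Pf4* and *Ppbp*), with *Gp1bb* listed at 0 in all 6 libraries. Lung markers summed to 0.349 to 10.9 in WT and 0.604 to 2.01 in *Crlf2*-/- hearts, with *Sftpc* and *Ager* the most abundant. For the mural markers every *Crlf2*-/- sum was above every WT sum, the opposite of the summed endothelial members. This sum too is carried by its abundant genes, and of the 9 mural markers 5 had positive and 4 had negative log2 fold changes.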

How the data were processed

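Bulk RNA sequencing covered heart tissue of 3 WT and 3 *Crlf2*-/- mice, grouped by their titles. The labels' extraction text names another tissue and kit than the study's methods, and tissue label and methods, which say heart, were followed. After trimming, reads were mapped by the authors using HISAT2 2.0.5, and featureCounts gave fragments per gene. The labels name the builds hg38 and mm10 without a role. Gene positions equalled those of GENCODE M21 (GRCm38) for 53585 of 54532 genes and all 46 members. The authors deposited FPKM and a gene length, and their product gave whole fragments for 100% of nonzero values (tolerance 0.1). The table held 0 columns of other samples. No 2 libraries were identical.

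Tested genes had 10 or more fragments in 3 or more libraries, with a minimum total of 15. The model was limma 3.58.1 (R 4.3.3, eBayes with a robust trend) on log2(scaled FPKM + 0.1). FPKM were scaled by trimmed means of M values (TMM), with divisors from 0.993 to 1.01. This log scale understates changes of low genes. Python 3.11.15 and scipy 1.17.1 did the rest. The fit was also run on simulated data. All changes planted there were larger than that of any member, so it did not cover changes of the members' size. P-values measure the spread between these mice only. Alternatives were other scalings, filters and pseudocounts, voom, a block for the replicate number, omission of each library and, added after seeing the data, a correction for length and GC content. Members, gene lists and tests were chosen with earlier results of these data known. Values by library are given for members with an unadjusted p under 0.05 or without overlap, the VEGF ligands and the highest member of each group. Other genes named are *Crlf2*, up to 4 genes of each pathway list with an unadjusted p under 0.05 or else its highest, and the 2 highest of each marker list. *Gp1bb* was singled out after its values were seen.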

Additional observations from a re-analysis of the deposited data

How the results depend on the processing

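None of the 46 members was called under any of 17 alternative settings run. The 6 members with an unadjusted p under 0.05 kept negative log2 fold changes in all of them, and all 6 kept an unadjusted p under 0.05 except under the pan-endothelial scaling (2 of 6) and without WT replicate 2 (4), WT replicate 3 (3) or *Crlf2*-/- replicate 2 (2). Under the pan-endothelial scaling 35 genes were called (26 higher, 9 lower), 2 members were lower and 1 higher at an unadjusted limma p under 0.05, 20 members were negative, and 4 members lay wholly below and 3 wholly above WT, where 1.79% and 15.1% of all tested genes did. The medians were then 0.0513 for all members, -0.0441 for VEGF ligands, -0.0534 for angiopoietin and Tie genes, 0.118 for Notch genes and -0.0227 for surface and junction genes. Signs also turned there for Vegfa (0.116), Pgf (0.0576), Flt1 (0.110), Flt4 (0.0450), Tie1 (0.0960), Jag1 (0.0857), Hey1 (0.149), Hes1 (0.0877), Aplnr (0.0039), Fli1 (0.0632), Sox7 (0.0957), Sox18 (0.110), Cdh5 (0.0620) and Egfl7 (0.0108), each by the shift that the scaling makes in every gene. Notch1 and Sox17, close to 0, turned with FPKM as deposited (-0.0028 and -0.0033) and with the length and GC correction (-0.0246 and -0.0010), and Sox17 also with the TMM without cardiomyocyte, red blood cell and mitochondrial genes (-0.00036) and with a pseudocount of 0.01 (-0.00077). Over all genes, no filter left 26815 genes and 6 calls (2 higher, 4 lower), a minimum of 10 fragments in every library left 1 call (0 lower, where 922 genes had an unadjusted limma p under 0.05), voom in limma gave 2 lower calls and the length and GC correction 2. The replicate number as a block gave 4 calls (3 lower). With it 7 members were lower at an unadjusted limma p under 0.05, as were 3.7% of all tested genes. Correlations of same-numbered libraries were -0.016, 0.115 and 0.120, and same-numbered mice were treated as unpaired. Leaving out each library gave 1 to 14 calls (1 to 4 higher, 0 to 10 lower, the most without *Crlf2*-/- replicate 1). At an unadjusted limma p under 0.05 there were 646 to 1138 genes, and 3 to 8 lower members (1.75% to 4.1% of all tested genes). In these fits 9 to 18 members lay wholly below and 0 to 3 wholly above WT (8.67% to 13.5% and 8.41% to 11.3% of all tested genes). Medians ran from -0.183 to -0.0712 for all members, -0.353 to -0.0311 for angiopoietin and Tie genes and -0.298 to -0.135 for VEGF ligands. They ran from -0.221 to -0.134 for surface and junction genes and from -0.213 to 0.0222 for transcription factors. The log2 fold changes that changed sign when a library was left out ranged from -0.22 to 0.21 for Angpt1, -0.0921 to 0.15 for Cd93, -0.17 to 0.0525 for Flt1, -0.28 to 0.0025 for Flt4, -0.13 to 0.0693 for Hey1, -0.39 to 0.0898 for Jag2, -0.0905 to 0.16 for Kdr, -0.13 to 0.17 for Notch1, -0.0383 to 0.16 for Nrp1, -0.0238 to 0.25 for Nrp2, -0.22 to 0.0095 for Pgf, -0.21 to 0.20 for Sox17, -0.22 to 0.0591 for Sox18, -0.22 to 0.0816 for Sox7, -0.22 to 0.0557 for Vegfa and -0.02 to 0.31 for Vwf. Apart from the pan-endothelial scaling, the cause of these shifts was not tested. A planned edgeR fit was not run, and voom on the recovered fragments was used in its place. With 3 mice per genotype an exact permutation test cannot go below 0.1.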
